A study of Saccharomyces cerevisiae with 13 samples.

Results

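The regions described here are the 700 DNA break peaks that 5 yeast (Saccharomyces cerevisiae) libraries gave after 1 h in hydroxyurea (HU), each library having been called on its own. They are 5 of the 13 lists in the study. The mec1 lists came from experiments A, B and Control, and the WT lists from experiments C and Control. All were chosen by strain, time and way of calling in the labels, with no measured value used. The mec1 lists held 138 (A), 151 (B) and 265 (Control) peaks, and the WT lists held 103 (C) and 43 (Control).

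Each genotype was represented by a single strain, WFA73 (mec1-1) and WFA72 (MEC1, called WT). Both strains were grown in rich medium (YPD), treated with 3 µM alpha factor, the pheromone that holds cells in G1, and sampled after 1 h in 200 mM HU with sodium azide added at sampling. The HU exposure is therefore shared by every library compared here, and no unexposed cells enter these comparisons. Peak positions cannot show the genotype, so the strain labels were not checked against the data. Experiments A and B held only mec1 and experiment C only WT among these lists, so strain and experiment cannot be told apart outside the Control experiment.

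Mec1 is the budding yeast counterpart of the ATR kinase. It senses stalled replication forks, acts through the kinase Rad53 to keep late origins from firing and forks from collapsing, and raises the supply of nucleotides. HU slows forks by blocking the enzyme that makes deoxynucleotides, and cells without Mec1 function lose viability in it. Break-Seq fills and labels broken DNA ends with a biotinylated nucleotide while the chromosomes are still embedded in agarose, so that the ends can be pulled out and sequenced, and clusters of reads are then called as peaks.

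The deposited lists give a position and a score per peak and no read counts, so sequencing depth is unknown, and depth and number of breaks cannot be told apart in the length of a list. The lowest score in a list lay between 50.2 and 51.3 in all 5, while the highest was 3100 in 4 lists and 938 in mec1 Control. The scores are the authors' own values from the peak caller, and they were only ranked within a list. The share of peaks with a score of at least 100 was 70.3% in mec1 A, 70.2% in mec1 B, 62.3% in mec1 Control, 70.9% in WT C and 41.9% in WT Control. Differences between strains were tested over lists by an exact permutation test (two-sided), for which 3 lists against 2 can give no p below 0.2, so none can pass 0.05. Of 20 measures described here, 9 (45%) did not overlap between the strains, and each of these 9 had that smallest exact permutation p of 0.2 (0.444 after Benjamini-Hochberg adjustment over the 20). Random strain labels would separate a fraction of about 0.2 of measures. The 9 are also not independent, as they include peak number with covered length, and convergent and tandem gaps each by midpoints and by covered bases.

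The first question was how much of the genome the peaks of each strain took and how they were spaced. Covered length was 493 kb in mec1 A, 538 kb in mec1 B and 967 kb in mec1 Control, against 479 kb in WT C and 109 kb in WT Control. The mec1 lists thus covered 4.09, 4.46 and 8.02% of the annotated genome (12.1 Mb), and the WT lists 3.98 and 0.905%. All 3 mec1 lists lay above both WT lists, but mec1 A exceeded WT C only slightly. The mean was 666 ± 262 kb (SD, n = 3) in mec1 and 294 ± 262 kb (SD, n = 2) in WT. The difference of 372 kb was 221 kb without mec1 Control, 187 kb without WT Control, 557 kb without WT C and 36.1 kb without both Control lists.

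The number and the width of peaks did not go together. The median width was 3230 bp in mec1 A, 3202 bp in mec1 B and 3109 bp in mec1 Control, nearly the same although their peak numbers ranged from 138 to 265. WT C had a median width of 4943 bp and WT Control of 2084 bp, one above and one below all mec1 lists. Peaks of 4 kb or more made up 54.4% of WT C, 18.6% of WT Control and 33.3 to 37.7% of the mec1 lists. The mean difference in median width (mec1 minus WT) was -333 bp (exact permutation p = 0.8), and it turned to 1096 bp without WT C, so the strains had no common direction in width.

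Within a list, the median distance between neighbouring peak midpoints was 68.3 kb in mec1 A, 53.6 kb in mec1 B, 33.1 kb in mec1 Control, 61.9 kb in WT C and 91.9 kb in WT Control. The order followed the number of peaks in part only, as WT C, with fewer peaks, had a smaller median distance than mec1 A. A neighbour within 10 kb was found for 36.6% of peaks in mec1 Control and for 14.0 to 16.5% in the other 4 lists. The high share was thus seen in mec1 Control and not in mec1 A (15.9%) or mec1 B (15.2%). mec1 Control also held the most peaks (265), with a mean distance between neighbours of 47.1 kb against 76.8 to 138 kb in the other lists. The part of peak number in this share was not tested. Without both Control lists the strain difference in this share turned from 7.36 to -0.918 percentage points. Dividing the median by the mean distance, which takes out the number of peaks, gave 0.782, 0.697 and 0.702 in mec1 and 0.655 and 0.668 in WT. The mec1 lists lay above both WT lists in this ratio, by 0.07 on average, but the sign turned when only peaks with a score of at least 100 were kept (-0.0493).

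**Figure D1:**
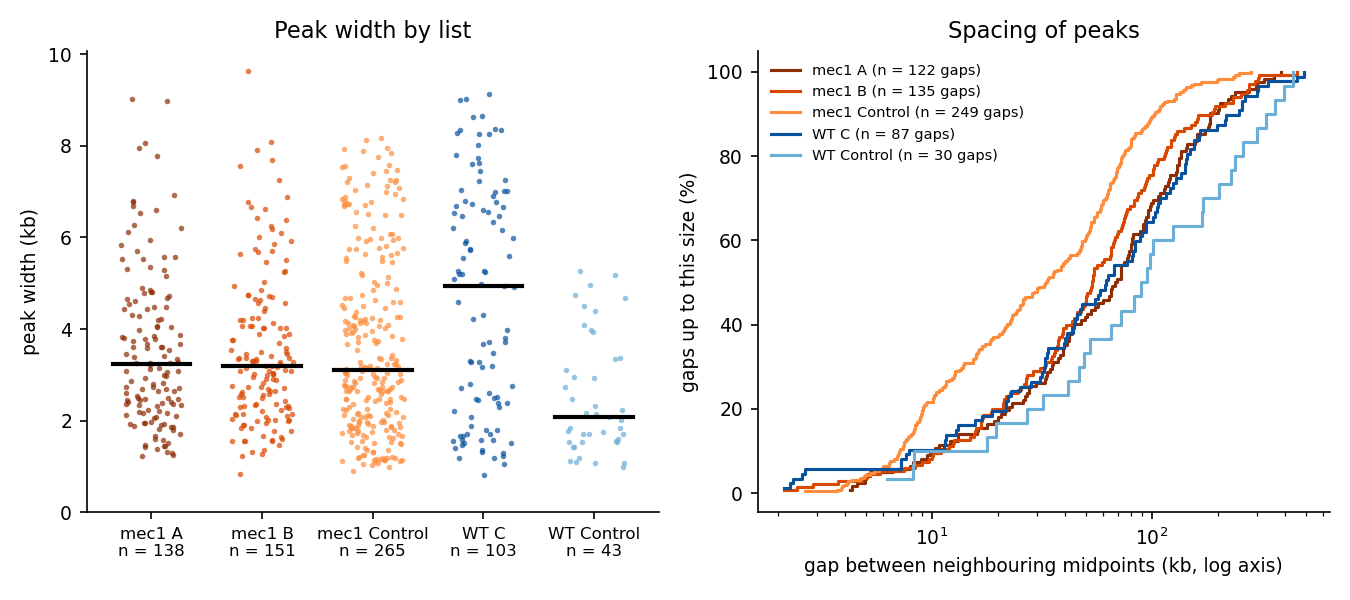
Left, the width of every peak (kb) by list, with the median of each list as a bar. Right, the cumulative share of gaps (%) between neighbouring peak midpoints up to a given size (kb, log axis). WT C holds the widest peaks (median 4943 bp) and WT Control the narrowest (2084 bp), and the curve of mec1 Control lies to the left of the other lists over most of its length.

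Merging overlapping peaks within a strain gave 350 mec1 regions and 131 WT regions, with median lengths of 3797 and 3927 bp. Of the mec1 regions, 60 were held by all 3 lists and 209 by 1 list. Of the WT regions, 15 were held by both lists and 116 by 1. Neighbouring regions were separated by a median of 23.0 kb in mec1 and 46.8 kb in WT, and 104 of 334 gaps (31.1%) in mec1 and 20 of 115 (17.4%) in WT were 10 kb or less. These merged numbers rest on 3 lists in one strain and 2 in the other and were not compared by a test.

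Regions joined by gaps of up to 10 kb formed runs. Of the 7 longest mec1 runs, 6 spanned a centromere or lay at a chromosome end, a share that was not counted over all runs. There were 25 runs of 3 or more regions in mec1 and 2 in WT. The longest mec1 run held 5 regions over 24.0 kb of chromosome I (134744 to 158756) and spanned the centromere, as did runs of 4 regions on chromosome IV (429977 to 472059), chromosome XII (126937 to 165072) and chromosome II (238065 to 275719). None of the regions in these 4 runs was held by all 3 mec1 lists. In the run on chromosome I, every region but the first was in mec1 Control alone. Runs of 4 at the ends of chromosome VI (3523 to 35096) and chromosome X (13 to 25650) held 2 and 1 regions common to all mec1 lists. The 2 WT runs of 3 regions were on chromosome IX (205936 to 218523) and chromosome XV (977983 to 989876), away from centromeres and ends. The longest stretch without a region was 161 kb in mec1 (chromosome IV 870748 to 1032219) and 485 kb in WT (chromosome XV 492582 to 977982), followed in WT by 454 kb of chromosome XIV (89554 to 543324).

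Position along the chromosome separated the strains in opposite ways at the 2 landmarks examined. The outer 20 kb of chromosomes, where subtelomeric gene families lie, held 15.2% of peaks in mec1 A (21 peaks), 12.6% in mec1 B (19) and 18.9% in mec1 Control (50). In WT C it held 2.91% (3 peaks) and in WT Control 9.30% (4), while the same zone makes up 5.31% of the genome. Every mec1 list was above both WT lists, and WT C was the only list below the share of the genome. The mean was 15.6 ± 3.16% (SD, n = 3) in mec1 and 6.11 ± 4.52% (SD, n = 2) in WT, a difference of 9.45 percentage points (exact permutation p = 0.2). Leaving out any single list gave differences of 6.25 to 12.6 points, all higher in mec1. With only peaks that scored at least 100 the difference was 7.99 points (exact permutation p = 0.6), and the lists of the strains then overlapped. Of the 32 chromosome ends, 16 had such a peak in mec1 A, 13 in mec1 B, 27 in mec1 Control, 2 in WT C and 4 in WT Control. Near-identical sequences at these ends can share reads, so which end a peak belongs to is uncertain.

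The zone within 30 kb of a centromere showed the reverse order. It held 6.52% of peaks in mec1 A (9 peaks), 5.96% in mec1 B (9) and 15.5% in mec1 Control (41), against 16.5% in WT C (17) and 23.3% in WT Control (10). The zone is 7.96% of the genome, so mec1 A and B lay below that share and the other 3 lists above it. The mean was 9.32 ± 5.34% (SD, n = 3) in mec1 and 19.9 ± 4.77% (SD, n = 2) in WT (difference -10.6 points, exact permutation p = 0.2). All mec1 lists were lower than both WT lists, but mec1 Control was only slightly below WT C. The Control lists alone gave -7.78 points, and the lists without both Control lists -10.3. In counts the order differs, because mec1 Control had the most peaks near centromeres of any list, at least 1 on each of the 16 chromosomes. The peaks of WT C were near 12 centromeres, those of WT Control near 7, those of mec1 A near 7 and those of mec1 B near 6. At the next distance, 30 to 60 kb from the centromere, WT C held 8.74% and WT Control 11.6%, and the mec1 lists 2.90 to 6.42%.

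**Figure D2:**
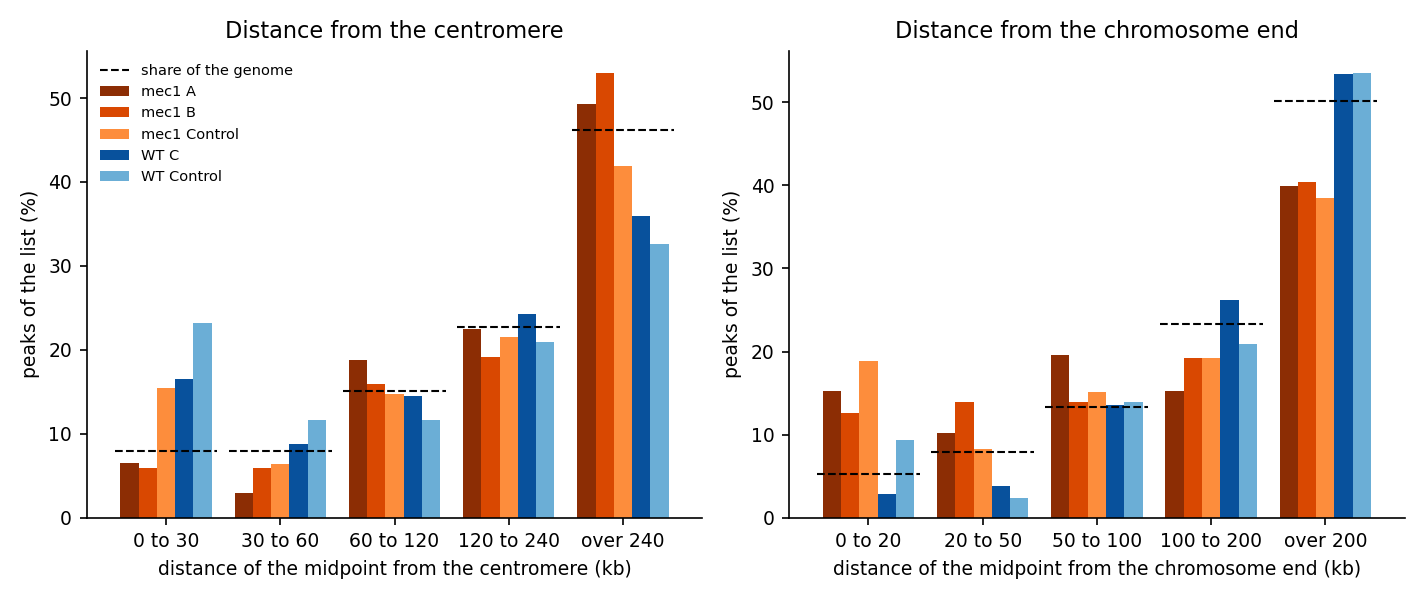
Share of each list's peaks (%) by the distance of the peak midpoint from the centromere (left, kb) and from the nearest chromosome end (right, kb), with the share of the genome in each distance class as a dashed line. Within 30 kb of the centromere the bars of both WT lists (16.5 and 23.3%) and mec1 Control (15.5%) stand above the line, and in the outer 20 kb the 3 mec1 bars (12.6 to 18.9%) do.

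The share of peaks did not overlap between the strains on 4 of 16 chromosomes (25%), each with an exact permutation p of 0.2 (0.8 after Benjamini-Hochberg adjustment over 16). Random strain labels on these lists would separate a fraction of about 0.2 of chromosomes, and 25% is near that. The 4 chromosomes are therefore only described. Chromosome XIV held 7.97% (11 peaks), 8.61% (13) and 5.66% (15) of the mec1 lists A, B and Control, but 3.88% (4) of WT C and no peak of WT Control. It makes up 6.50% of the genome. Chromosome XIII went the other way, with 3.62, 4.64 and 5.66% in mec1 A, B and Control against 8.74% in WT C and 6.98% in WT Control, for 7.66% of the genome. Chromosomes VII and XII also had higher shares in both WT lists than in any mec1 list. On XII the gap was small (9.06% in mec1 Control and 9.30% in WT Control), and on VII WT Control stood alone at 14.0%. WT Control, with 43 peaks in all, also had none on chromosomes V and VI. Without WT C the number of chromosomes that did not overlap rose to 12, and without WT Control to 10, so these counts rest on single lists.

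**Figure D3:**
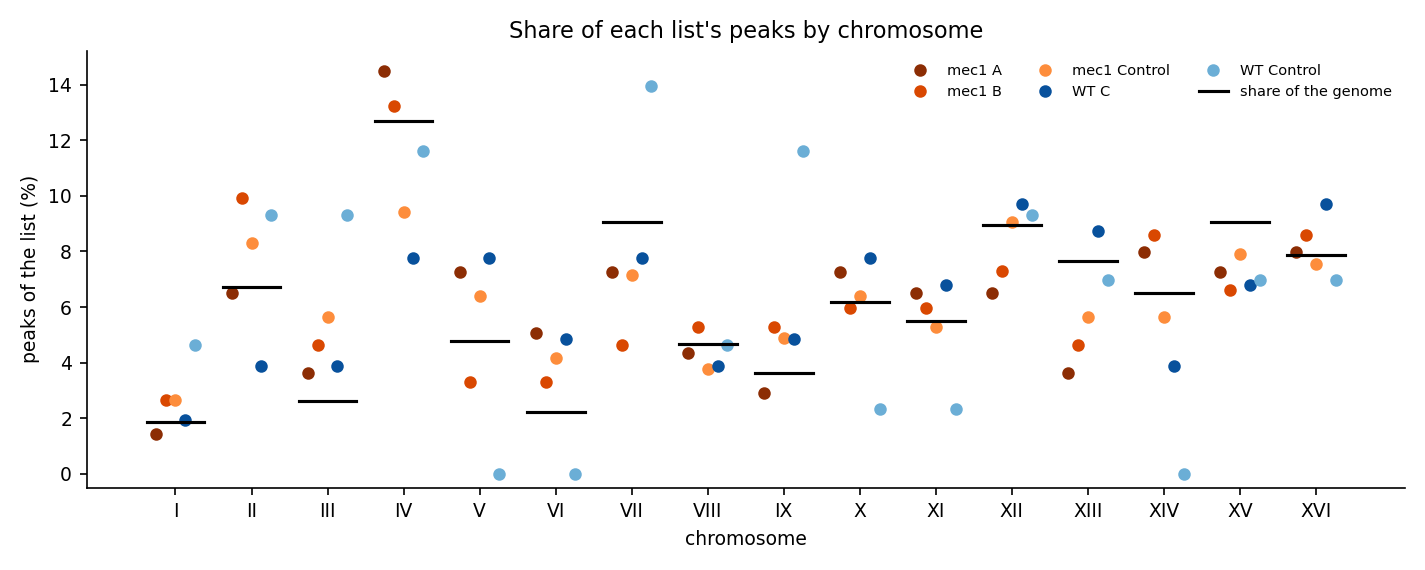
Share of each list's peaks (%) on each of the 16 chromosomes, 1 point per list, with the chromosome's share of the genome as a bar. On chromosome XIV the 3 mec1 points (5.66 to 8.61%) lie above the WT points (3.88% and 0), and on XIII they lie below them.

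The second question was where peaks lie relative to genes. Neighbouring genes can run toward each other (convergent), so that the gap between them holds transcript ends. They can also run apart (divergent), with a gap that holds both promoters, or the same way (tandem). Peak midpoints fell in convergent gaps for 12.3% of mec1 A (17 peaks), 9.27% of mec1 B (14), 7.92% of mec1 Control (21), 5.83% of WT C (6) and 2.33% of WT Control (1). Such gaps make up 3.98% of the genome. Every mec1 list was above both WT lists, and WT Control was below the share of the genome with its single peak. The mean was 9.84 ± 2.25% (SD, n = 3) in mec1 and 4.08 ± 2.47% (SD, n = 2) in WT, a difference of 5.76 points (exact permutation p = 0.2) that was 5.60 within the Control experiment and 4.97 without both Control lists. Counted over all covered bases instead of midpoints, convergent gaps took 6.05 to 6.84% in mec1, 4.99% in WT C and 3.72% in WT Control, which is the same order with a smaller gap.

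Convergent gaps hit in all 3 mec1 lists included 2 near chromosome ends. One lay on chromosome VI, where peaks of mec1 A (18131 to 21257), mec1 B (19415 to 21261) and mec1 Control (17925 to 21688) were centred beside AQY3, an aquaglyceroporin gene, next to the amino acid permease gene AGP3, which mec1 A and Control also reached. The other lay on chromosome XI, where the peaks at 15968 to 17671 (mec1 A), 15884 to 17532 (mec1 B) and 15918 to 17636 (mec1 Control) were centred beside SRY1. No WT list held either region.

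Tandem gaps showed the opposite order, with 17.4, 22.5 and 20.4% of midpoints in mec1 A, B and Control and 27.2 and 27.9% in WT C and WT Control, against 13.2% of the genome. The WT lists lay within 1 point of each other and above all mec1 lists (difference -7.45 points, exact permutation p = 0.2). Divergent gaps did not separate the strains, with 9.42 to 14.3% in mec1, 17.5% in WT C and 9.30% in WT Control. Inside genes lay 60.1, 53.0 and 57.4% of mec1 midpoints and 48.5 and 60.5% of WT midpoints, all below the 73.6% of the genome that genes take. A peak overlapped 2.35 to 2.40 protein-coding genes on average in mec1, 3.02 in WT C and 2.07 in WT Control, which follows the order of the median widths in WT. The strain difference in genes per peak was -0.18 and turned to 0.298 without WT C. Overlapped genes had median lengths of 1188 to 1335 bp in mec1 and 1281 and 1284 bp in WT, where the median of all protein-coding genes is 1200 bp.

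**Figure D4:**
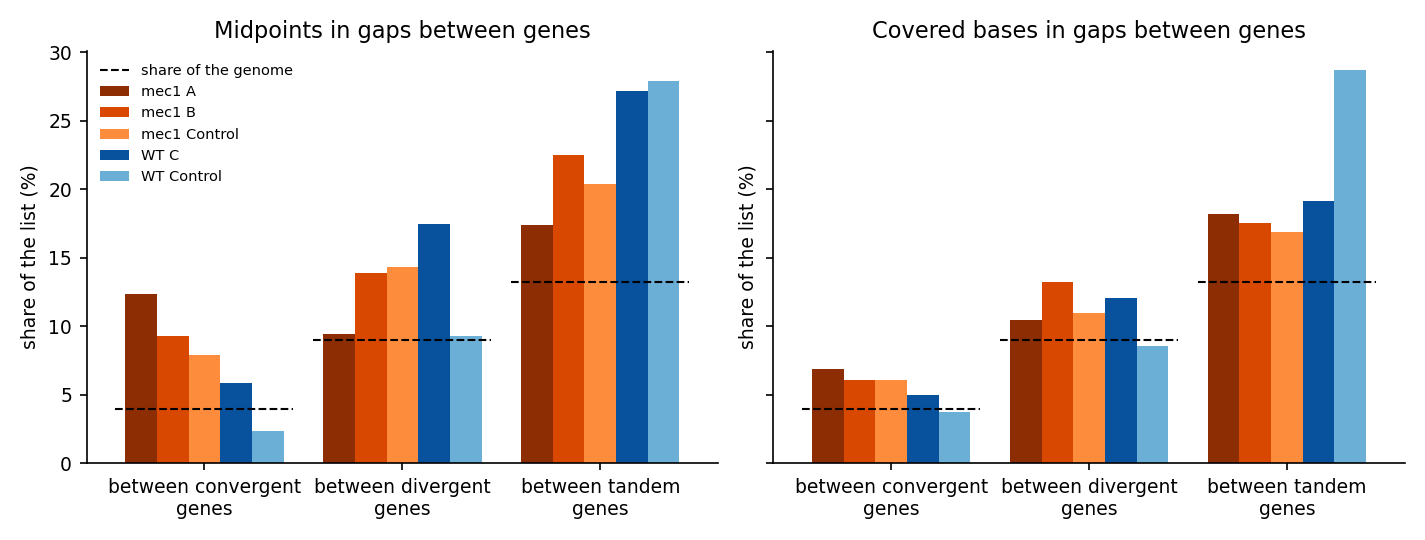
Share of peak midpoints (left, %) and of covered bases (right, %) that fall in gaps between convergent, divergent and tandem genes, 1 bar per list, with the share of the genome as a dashed line. In convergent gaps the 3 mec1 bars (7.92 to 12.3% of midpoints) stand above both WT bars (5.83 and 2.33%), and in tandem gaps the WT bars are higher.

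The third question was which regions the strains shared. Merging all 5 lists gave 388 regions, of which 262 were held only by mec1 lists, 47 only by WT lists and 79 by both strains. Peaks of WT were more often overlapped by mec1 Control than by the other mec1 lists. Of the 103 WT C peaks, 53 (51.5%) were overlapped by mec1 Control, 24 (23.3%) by mec1 A and 21 (20.4%) by mec1 B. Of the 43 WT Control peaks, 27 (62.8%) were overlapped by mec1 Control but only 4 (9.30%) each by mec1 A and mec1 B. The exact 95% binomial intervals, which cover counting error only, were 46.7 to 77.0% for the first and 2.59 to 22.1% for the others. The longer mec1 Control list covers more of the genome, 8.02% against 4.09 and 4.46%, and its part in these shares was not tested. The WT lists overlapped each other less than either overlapped mec1 Control, as 15 WT C peaks (14.6%) met WT Control and 15 WT Control peaks (34.9%) met WT C. Among the 79 regions of both strains, 69 held mec1 Control, and in 48 it was the only mec1 list. The score percentile within a list was higher in mec1 than in WT in 33 of these 79.

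Centromeric regions were shared in the same uneven way. Of 388 regions, 56 (14.4%) lay within 30 kb of a centromere, and 31 of these 56 had mec1 Control as their only mec1 list. None was held by all 3 mec1 lists. Of the 79 regions of both strains 17 lay there. One, on chromosome IX (352858 to 365847), spanned the centromere, was held by mec1 Control and both WT lists, and covered MPH1, a DNA helicase gene of fork repair. On chromosome I, the region at 153872 to 160284 beside the centromere was held by WT C, at the 96.6th percentile of its scores, and by mec1 Control, and covered RFA1, which encodes the large subunit of the single-strand DNA binding complex RPA.

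**Figure D5:**
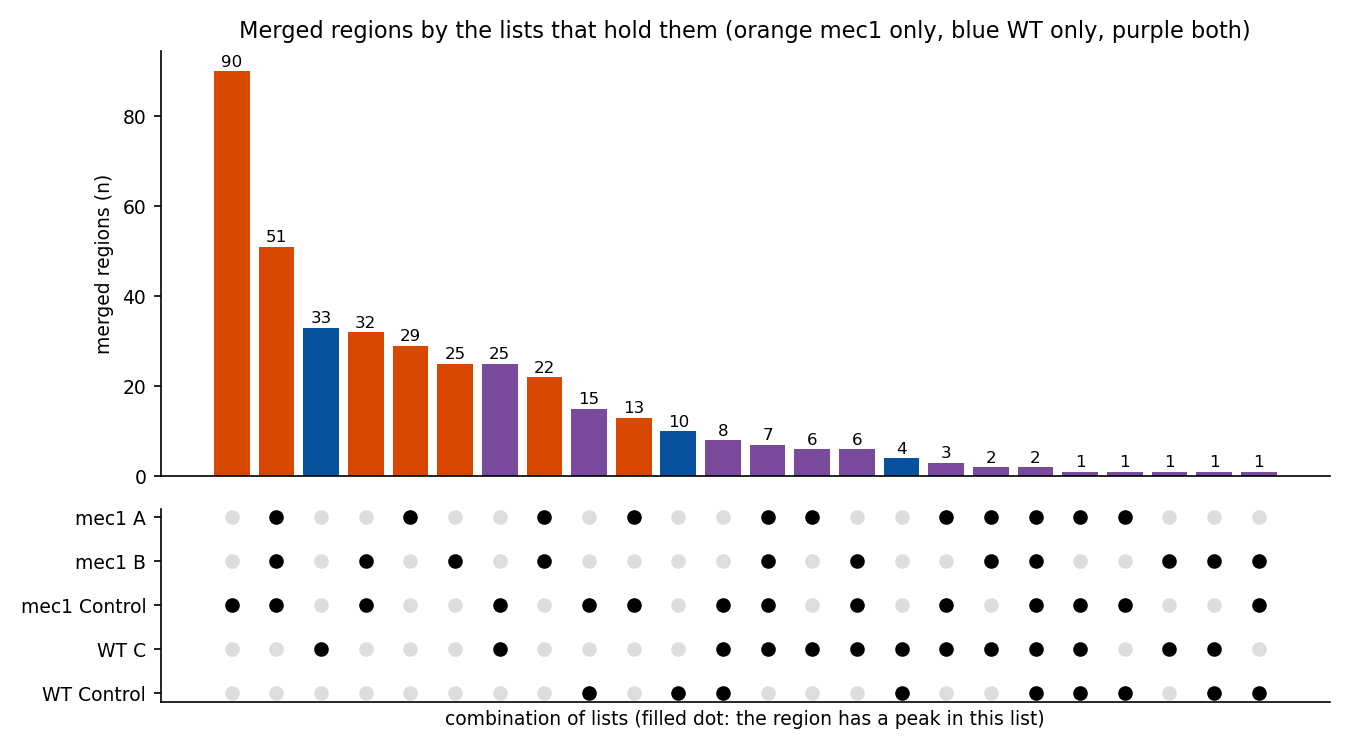
Number of merged regions by the combination of lists that holds them, with filled dots below each bar for the lists. The tallest bar is mec1 Control alone (90 regions), followed by the 3 mec1 lists without WT (51) and WT C alone (33). Regions in all 5 lists number 2.

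Only 2 regions were held by all 5 lists. The first, on chromosome VIII (552716 to 556650), lay 5.40 kb from the chromosome end over the 3′ part of PHO12, an acid phosphatase gene, and IMD2, an IMP dehydrogenase gene of guanine nucleotide synthesis. It scored at the 98.9th, 99.0th and 96.8th percentile in mec1 A, B and Control, and at the 83.0th and 75.6th in WT C and WT Control. The peaks of mec1 were 3544, 3449 and 3870 bp wide and covered all of IMD2. Those of WT were 1577 and 1704 bp wide, ended within IMD2 and covered 29.9 and 32.6% of it. The part common to all lists (553289 to 554865) was therefore the WT C peak itself, from the end of PHO12 into the first part of IMD2, and the mec1 peaks reached beyond it over the rest of the gene. PHO12 and IMD2 have close relatives elsewhere in the genome, so their reads may be shared with these.

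The second region, on chromosome IX (242077 to 253724), joined 6 peaks, and its common part (249405 to 250547, 1143 bp) held the start of VHR1, an activator gene of biotin uptake and synthesis. Its peaks ranked in the middle or lower part of their lists, at percentiles of 30.8 in mec1 A, 41.4 in mec1 B, 62.8 and 54.5 for a pair of peaks in mec1 Control, 57.8 in WT C and 33.7 in WT Control. Neither strain was higher here. Without WT Control, 9 regions were common to the remaining lists. Another 7 regions were held by the 3 mec1 lists and WT C, among them chromosome V 498373 to 505841 with RAD4, a nucleotide excision repair gene, and chromosome X 188327 to 197611 with ASF1, a histone chaperone gene.

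The regions held by all 3 mec1 lists and no WT list numbered 51 of 388 (13.1%). Their median length was 3645 bp, and they lay on 15 of the 16 chromosomes, with 6 each on IV and XIV, 5 each on X and XII, and none on I. In the outer 20 kb lay 14 of them (27.5%, against 14.7% of all 388 regions), and within 30 kb of a centromere lay 0, where all regions had 14.4%. These regions were picked from the same lists whose shares at ends and centromeres are given above. The values here therefore restate those shares in part and are no separate result. The nearest WT peak was at a median distance of 61.7 kb (5.45 to 308 kb), and within 10 kb in only 3 regions. Without mec1 A the number was 83, and with scores of at least 100 it was 29. The WT lists held fewer peaks and covered less of the genome than the mec1 lists. The part of list length in this count and in the distances to WT peaks was not tested.

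Regions were named by their mean score percentile over the 3 mec1 lists. The highest was chromosome XII 586305 to 593226, which ranked at 97.5, 97.7 and 84.3 in mec1 A, B and Control, with nearly the same bounds in each (common part 586626 to 593051). It covered ADY4, a spindle pole body gene of meiosis, YLR225C, BUR2, the cyclin gene of a transcription elongation kinase, and UCC1. All 3 peaks overlapped these 4 genes. The fourth region, chromosome XVI 856764 to 864825, held KRE6 (cell wall beta-glucan synthesis) in all 3 lists, at ranks of 92.4, 86.4 and 84.7. The wider peak of mec1 A, 8062 bp against 3285 and 3237 bp, alone reached on to GPH1 (glycogen phosphorylase) and SGV1. A WT peak lay 5.84 kb from the first of these regions and 12.1 kb from the other.

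The second, chromosome VIII 500036 to 503139, was centred in all 3 lists on the divergent gap between PPX1, which encodes an exopolyphosphatase, and SMN1, at ranks of 93.8, 90.4 and 92.6. Chromosome X gave a pair of regions near its ends. One, at 20905 to 25650, held the isomaltase gene IMA5, REE1 and YJL218W in all 3 lists (ranks 90.9, 92.4 and 90.4) and the hexose transporter gene HXT9 in mec1 A alone. The other, at 709222 to 714023, held DAN4 in all 3 lists (ranks 67.0, 94.4 and 97.5) and DAN1 in mec1 A alone, both genes of cell wall mannoproteins made without oxygen. The nearest WT peaks were 50.1 kb, 13.2 kb and 61.7 kb away from these 3 regions.

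The regions ranked next were on chromosomes XII, XIV, II and IV. YCT1, a cysteine transporter gene, lay at chromosome XII 30339 to 34388, with YLL054C reached in mec1 A and B. On chromosome XIV, 567676 to 572761 held YNL035C and the tRNA genes YNCN0011W and YNCN0012C, with YNL034W reached in mec1 A and Control, and lay 5.65 kb from a WT peak. Also on XIV, 26001 to 32793 held FIG4, EGT2 (a cell wall gene of early G1) and PFA3, with LEM3 reached in mec1 A alone. Chromosome II 91445 to 94975 held PRS4, a gene of the phosphoribosyl pyrophosphate synthesis that feeds nucleotide production, and UBP13, with AST1 reached in mec1 A and B. Chromosome IV 1107561 to 1111632 held ASP1 (asparaginase) and MRPL35, with DAD4, a kinetochore gene, reached in mec1 A and B and SWA2 in mec1 A alone. Their mean percentiles ran from 82.5 to 85.5.

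The last of the 15 named regions lay mostly toward chromosome ends. ALR2, a magnesium transporter gene, was the only gene named at chromosome VI 30544 to 35096. ARN2 and COS8 lay at chromosome VIII 3548 to 9629, JIP5 with the tRNA gene YNCP0024C at chromosome XVI 879463 to 882945, ENB1 at chromosome XV 16018 to 20058, with CSS3 reached in mec1 A and Control, and YCR102C at chromosome III 303749 to 307563, where the mec1 B peak reached no gene. Their mean percentiles ran from 76.5 to 81.6. The lists did not rank them alike, since the YCR102C region stood at 94.6 in mec1 A, 35.4 in mec1 B and 99.4 in mec1 Control.

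The regions of both WT lists and no mec1 list numbered 4 of 388 (1.03%), and in each the WT Control peak was the narrower and the lower in rank. Chromosome III 128436 to 135330 held SAT4 (a kinase gene of salt tolerance) and RVS161 in both lists and ADP1 and ADY2 in WT C, and ranked at 84.0 in WT C and 31.4 in WT Control. Chromosome XI 257888 to 261058 ranked at 71.4 and 3.49, and the WT C peak held CWP2, a cell wall mannoprotein gene, with YKL097C and YKL096C-B, while the WT Control peak held no gene. Chromosome XIII 646554 to 653110 held MRPL24 and RPL36A in both lists, at 65.5 and 15.1, and GYL1 and CMC4 in WT C. Chromosome XVI 71758 to 77026 held VIK1, YAH1 and ATG41 in both lists, at 82.0 and 1.16, and RPL36B in WT C. RPL36A and RPL36B are near-identical genes for one ribosomal protein, so reads of WT C may be shared between them. Peaks of mec1 lay close to 3 of the 4, at 0.540 kb on III, 2.35 kb on XI and 1.99 kb on XVI, and at 10.1 kb on XIII. The count was 12 without mec1 Control, 15 without WT C and 37 without WT Control.

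Regions of WT held by 1 list only numbered 43, 33 from WT C and 10 from WT Control. Their nearest mec1 peak was at a median of 6.77 kb (0.421 to 50.3 kb), and 6 of the 43 (14.0%, beside 14.4% of all 388 regions) lay within 30 kb of a centromere. The mec1 lists held more peaks than the WT lists. The part of this in such distances, here and for the regions of both WT lists, was not tested. The highest-scoring WT C peaks without a counterpart were chromosome XIII 178307 to 184502 over PRP39, a splicing gene, GSF2 and PRM6, at the 98.5th percentile, and chromosome X 204109 to 209083 over MDV1, a mitochondrial fission gene, and CCT7, a chaperonin gene, at the 95.6th.

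The Control experiment gave both strains side by side with 1 list each and no replicate. Of the 265 mec1 Control peaks, 237 met no WT Control peak. Those with the highest scores were at YCR102C (chromosome III 304912 to 307563), ZUO1 and BIO2, a ribosome-associated chaperone gene and the biotin synthase gene (chromosome VII 1061997 to 1065144), MNN2 and GRX7 (chromosome II 266199 to 270211), the left end of chromosome III (715 to 5467), and DAN4 (chromosome X 709852 to 712778). The YCR102C, BIO2 and DAN4 peaks were also met by mec1 A and B and by no WT list, while the MNN2 peak and the end of chromosome III were also met by WT C. Of the 43 WT Control peaks, 16 met no mec1 Control peak. They ranked at or below the 70.9th percentile of their list, led by chromosome VII 381614 to 383941 (MRH4 and PUS2) and chromosome IV 403103 to 405848 (MRX9, RTK1 and MPS1, a spindle pole kinase gene). Next came chromosome VII 482196 to 486274, which held PMA1, the plasma membrane proton pump gene, BRP1 and the calcium pump gene PMC1. The others named were chromosome III 162030 to 163449 (SLM5 and PMP1), also met by WT C, and chromosome I 170717 to 175452 (CDC15, a mitotic exit kinase gene, and KIN3). The top WT Control peaks, at RRT15 beside the rDNA (chromosome XII 489753 to 490882, score 3100) and at the left ends of chromosomes X (6627 to 7698) and IX (6631 to 7712), were all met by mec1 Control. Chromosome ends and the rDNA hold repeated sequence, where the placing of reads is uncertain.

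Genes followed the regions. Any mec1 list overlapped 914 of 6002 protein-coding genes (15.2%) and any WT list 373 (6.21%). All 3 mec1 lists and no WT list overlapped 92 (1.53%), and both WT lists and no mec1 list overlapped 16 (0.267%). Genes in all 5 lists numbered 3, IMD2, PHO12 and VHR1. The count of 92 was 171 without mec1 A and 155 without mec1 Control, that of 16 was 52 without WT C and 174 without WT Control, and that of 3 was 12 without WT Control. Among 275 tRNA genes, mec1 lists overlapped 17, 22 and 49 (A, B and Control) and WT lists 37 (C) and 5 (Control), and 5 were in all mec1 lists and no WT list. WT C thus overlapped more tRNA genes than mec1 A or B. Any mec1 list overlapped 62 of the 275 (22.5%) and any WT list 40 (14.5%), beside 15.2 and 6.21% of protein-coding genes.

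Gene lists were set beside the shares of all protein-coding genes, 15.2% in any mec1 list and 6.21% in any WT list. The share in all mec1 lists and no WT list was 1.53%, and the small counts of listed genes there were not tested against it. Of 22 sugar transport genes, 2 (GAL2, the galactose permease, and MAL31, a maltose permease) were in all mec1 lists and no WT list, 10 (45.5%) in any mec1 list and 4 (18.2%) in any WT list. HXT2 and HXT5, hexose transporter genes, were in both WT lists and in mec1 Control, and the neighbours HXT6 and HXT7 were in mec1 A, mec1 B and WT C. HXT1, MPH2 and MPH3 were in mec1 Control alone, and HXT9 was in mec1 A alone. Of 49 genes for amino acid, base and ion permeases, 2 (PHO87, a phosphate transporter gene, and YCT1) were in all mec1 lists and no WT list, 13 (26.5%) in any mec1 list and 3 (6.12%) in any WT list. PHO87 was covered over its whole length in each mec1 list, and its peaks ranked at 85.9, 93.7 and 35.3. YCT1 was covered for 85.6, 82.5 and 67.9% of its length.

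Of 31 iron regulon genes, 7 (22.6%) were in any mec1 list and 0 in a WT list, beside 15.2 and 6.21% over all protein-coding genes. In all 3 mec1 lists were ARN2 and ENB1, transporters of siderophores (iron carriers), and FIT1, a cell wall protein that retains them. Peaks reached the end of ENB1 (17.6, 21.5 and 31.2% of the gene) and of FIT1 (28.5, 37.8 and 40.7%) and covered more of ARN2 (48.2, 54.9 and 68.7%). The remaining 4, FIT2, FIT3, FRE3 and TIS11, were in mec1 Control alone. The regions of ARN2 and ENB1 lay 3.55 and 16.0 kb from a chromosome end. FIT1 lies toward the right end of chromosome IV, and FRE3, FIT2 and FIT3 lie together toward that of XV (1055545 to 1061055). Peaks toward chromosome ends were more frequent in the mec1 lists, which the share over all genes does not take into account. The part of place in these counts was not tested.

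Of 25 glycolysis and fermentation genes, 1 (HXK1, a hexokinase gene) was in all mec1 lists and no WT list. In any mec1 list were 7 (28%) and in any WT list 4 (16%), beside 15.2 and 6.21% over all protein-coding genes. These 4 were all in WT Control, namely TPI1, TDH3, GPM2 and ADH1, of which TDH3 was also in mec1 A and B, and GPM2 and ADH1 in mec1 Control. WT C overlapped none of the 25 although it overlapped 311 protein-coding genes and WT Control 89. Of 46 cell wall genes and flocculins, 4 (DAN4, EGT2, FIG2 and KRE6) were in all mec1 lists and no WT list. In any mec1 list were 9 (19.57%) and in any WT list 6 (13.04%), all 6 from WT C. Both shares were above those over all protein-coding genes, 15.2 and 6.21%. KRE6 was covered whole in each mec1 list, whereas FIG2 was reached over 42.5, 12.3 and 10.0% of its length.

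Of the 43 genes of the PAU, COS and YRF1 families at chromosome ends, 18 were in mec1 Control, 2 in mec1 A, 3 in mec1 B, 0 in WT C and 1 (PAU7) in WT Control. In any mec1 list were 41.9% of these genes and in any WT list 2.33%, beside 15.2 and 6.21% over all protein-coding genes. Only COS8 was in all mec1 lists. This list thus rested on mec1 Control, and reads of its members may be shared with close copies. Of 31 pheromone response genes, 4 (12.9%) were in any mec1 list and 1 (3.23%) in any WT list. In all mec1 lists and no WT list was 1 (MFA2, the gene of the a-factor pheromone, ranks 78.6, 7.62 and 62.5). Of 36 heat shock and oxidant defence genes, 8 (22.2%) were in any mec1 list and 1 (2.78%) in any WT list. In all mec1 lists and no WT list was 1 (GPX1, a glutathione peroxidase gene).

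Of 25 genes of the checkpoint and nucleotide supply, 3 (12%, beside 15.2% of all protein-coding genes) were in any mec1 list: MEC1 itself and RAD53 in mec1 B alone, and LCD1, which encodes the partner of Mec1, in mec1 A and Control. WT lists held 2 others (8%, beside 6.21% of all protein-coding genes), DIF1 in WT C and RFX1 in WT Control, both regulators of ribonucleotide reductase. Of 44 genes of G1/S, replication and cohesion, 9 (20.5%) were in any mec1 list, 3 (6.82%) in any WT list, and 1 (SMC3, a cohesin gene) in all mec1 lists and no WT list. Of 53 DNA repair genes, 9 (17.0%) were in any mec1 list and 4 (7.55%) in any WT list, near the 15.2 and 6.21% of all protein-coding genes. In all mec1 lists without WT were 0, since RAD4 was also in WT C. Of 11 histone genes, HHT1 (9.09%) was in mec1 A and the neighbours HTA2 and HTB2 (18.2%) in WT Control. Glycogen and trehalose genes (4 of 19 or 21.1% in any mec1 list, 3 or 15.8% in any WT list) had none in all mec1 lists without WT. Ergosterol genes (1 of 24 or 4.17% in each strain) had none there either.

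Of the 16 genes in both WT lists and no mec1 list, 8 were covered over their whole length in both lists, among them UBC4, PMP1, RPL36A, YAH1, ATG41 and SGN1. UBC4 encodes a ubiquitin-conjugating enzyme, and the peaks over it ranked at 59.7 in WT C and 80.2 in WT Control. At the other 8 genes WT Control reached only a part, as for TEC1, a transcription factor gene of filamentous growth, which was covered whole in WT C and for 2.87% in WT Control.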

How the data were processed

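Biotin-labelled DNA ends were sequenced, and peaks were given for 13 samples, of which the 5 HU libraries called alone were used. The other 8 lists are not used here. Alignment was to sacCer3, and the tools named for experiments A to C, per the submitters' processing notes, are BWA 0.6.2, Bowtie2 and MACS 1.4.1. For the Control samples BWA and MACS are named without a version. How MACS was set and which reads were filtered is not given in the sources used here. Each deposited file gives chromosome, start, end and a score per peak. The score is the authors' value on an unstated scale, and it was ranked within a list only, ties at their mean rank. Depth is unknown, and nothing in the labels says that lists of a strain came from separate cultures. A p-value here only places the observed difference among the possible splits of these lists, and does not speak for cultures beyond them.

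Positions are 1-based (1 added to each deposited start). Genes (6431 nuclear, 6002 protein-coding, 275 tRNA) came from RefSeq's table for assembly R64, the assembly behind the sacCer3 name. Strand was read from the systematic name where a name gives one (6430 genes). The centromere was the midpoint between the innermost genes of both arms, and a chromosome was taken to end with its outermost gene or peak. Peaks sharing 1 bp were merged. Shares have exact Clopper-Pearson 95% intervals, for counting error only. Strains were compared by exact permutation over lists (two-sided) with Benjamini-Hochberg adjustment. Code was tested on simulated data with known answers (Python 3.11.15, pandas 2.3.3, SciPy 1.17.1, statsmodels 0.14.6).

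Regions named were all those in all 5 lists, all those in both WT lists only, the 15 with the highest mean percentile of those in all mec1 lists only, and the 5 highest of each Control list that the other lacks, with up to 4 genes each, plus listed genes in all mec1 lists only. Other regions and genes were named after their values were seen. Members and gene lists were chosen with earlier results of these data known. Alternatives were a score of at least 100, the upper 50% of each list by score, no chromosome ends or rDNA, other overlap and gene rules, merging within 1 kb and leaving out lists.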

Additional observations from a re-analysis of the deposited data

How the results depend on the processing

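All 11 differences between strains (mec1 minus WT) were recomputed under each alternative, 115 values in all, of which 100 kept their sign and 15 turned. The signs of 6 held throughout, those of peak number, covered length and the shares in convergent gaps (3.64 to 8.31 points), in tandem gaps, in the outer 20 kb (6.25 to 12.6) and near centromeres (-13.9 to -7.19). None could pass the test at 3 lists against 2. A kept sign did not always mean that the lists stayed apart. With all 5 lists kept, the exact permutation p rose from 0.2 to 0.6 for the outer 20 kb with scores of at least 100. Near centromeres it rose to 0.4 without chromosome ends and rDNA. For covered length it was 0.4 with scores of at least 100, 0.6 in the upper 50% and 0.4 without chromosome ends and rDNA. In these settings the lists of the strains overlapped. The turned values were as follows, the cause not having been tested. The difference in median width (-333 bp) was 1025 bp in the Control experiment alone, an alternative chosen after seeing the data like that without both Control lists, and ranged from -1763 to 1096 bp with 1 list left out. The difference in median over mean gap (0.07) was -0.0493 with scores of at least 100 and -0.274 in the upper 50% of each list. That in close neighbours (7.36 points) was -0.918 without both Control lists. That in genes per peak (-0.18) was 0.0455 with 200 bp around midpoints, 0.0054 with at least 50% of the gene covered, 0.334 in the Control experiment, and -0.652 to 0.298 with 1 list left out. That in gene length (-4.5 bp) was 28.4 bp with scores of at least 100, 27.8 bp without chromosome ends and rDNA, 117 bp with 200 bp around midpoints, 228 bp with 50% of the gene, 51 bp in the Control experiment, and -33 to 40.5 bp with 1 list left out.

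Counts moved more. Chromosomes that did not overlap (4) were 8 in the upper 50%, 11 without both Control lists and 4 to 12 with 1 list left out. Regions in all mec1 lists and no WT list (51) were 29 with scores of at least 100, 19 in the upper 50% and 51 to 83 with 1 list left out. Regions in both WT lists only (4) were 2 with scores of at least 100, 70 without both Control lists and 4 to 37 with 1 list left out. Regions in all lists (2) were 1 with scores of at least 100, 1 in the upper 50%, 1 without chromosome ends and rDNA, 11 without both Control lists and 2 to 9 with 1 list left out. Genes in all mec1 lists and no WT list (92) were 50 with scores of at least 100, 37 in the upper 50%, 15 with 200 bp around midpoints, 49 with 50% of the gene, 156 without both Control lists and 92 to 171 with 1 list left out. Genes in both WT lists only (16) were 9, 10, 0, 10 and 258 under the same 5 settings and 16 to 174 with 1 list left out. Genes in all lists (3) were 1 without chromosome ends and rDNA, 0 with 200 bp around midpoints, 0 with 50% of the gene, 15 without both Control lists and 3 to 12 with 1 list left out. A count of presence in all lists asks for less when fewer lists enter, by construction.

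No paired analysis was possible because the strains share only 1 experiment label, Control, and fewer than 2 pairs. Read depth is unknown, and depth and number of breaks cannot be told apart. The scale of the scores is not stated. Whether the lists of a strain are independent was not tested.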
